A study of Mus musculus with 61 samples.

Results

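Microglia are the resident macrophages of the brain parenchyma. They depend on the receptor Csf1r for survival, sense their surroundings through receptors such as P2ry12 and Cx3cr1, and clear debris and tag synapses with complement and Trem2-Tyrobp signalling. Histology has long described them as unevenly spread over the adult mouse brain, denser in parts of the forebrain and sparse in the cerebellum. The genes followed here were Aif1, Csf1r, Cx3cr1, C1qa, C1qb, C1qc, Tyrobp, Trem2, P2ry12 and Itgam, a list of gene names. Of these 10 genes, 9 had an array probe whose RefSeq accession led to the symbol, out of 16358 genes that could be named in this way. Csf1r was not analysed here. Where a gene had several probes, the one with the highest mean signal was used.

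Expression was measured in 61 fractions of whole brain from 6 male C57BL/6J mice aged 8 weeks that were perfused with an RNA preservative. Each fraction pooled 200 frozen sections of 5 µm, which makes 1 mm of tissue, and its RNA was hybridised to 1 single-colour Agilent whole mouse genome array. Each mouse gave 1 series of fractions. The sagittal series S and So ran from left to right (9 and 10 fractions), the coronal series C and Co from posterior to anterior (13 and 16), and the horizontal series H and Ho from dorsal to ventral (6 and 7). The o series were cut slightly obliquely. Of the 61 fractions, 56 fall into 28 pairs of matching position, 1 fraction from each of the 2 mice of a plane, named here s1 to s9, c1 to c13 and h1 to h6. The study set these pairs from correlations on these same arrays, so the likeness of partners is not independent evidence. Replication at a position is therefore 2 mice. Because a fraction is a slab through many structures, fewer microglia and less RNA per microglial cell cannot be told apart.

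All 9 probes were well above background on all 61 arrays. The arrays lay on 16 slides scanned on 5 days. In the sagittal and coronal planes slides and days go with the mouse, except for S1 (scanned with So) and C13 (scanned with H and Ho). C13 also shared a slide with H1 and H2. H and Ho shared a scan day but no slide. The region labels were checked against marker genes. The olfactory bulb genes Doc2g, Cdhr1 and Eomes were brightest in C13 and Co15, which form pair c13, and the cerebellar granule cell gene Gabra6 was brightest in C3 and Co5, which belong to c3 and c4. Not all markers peaked where their list would place them. The cortex gene Lamp5 was brightest in C1 and Co1, and Gprin3, listed for striatum, in C2 and Co3. None of the 4 hindbrain genes was brightest in a fraction of c1, and these markers do not show that pair to be hindbrain.

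Of the 7 members whose start site was in the promoter table, C1qb and C1qc are shown because they neighbour each other and followed nearly the same profile. Itgam and P2ry12 are shown because they had no called rise at the rostral end. These are the 250 bases before the start site from RefSeq (GRCm38.p6), 5′ to 3′ on the strand of the gene. For C1qc, and for Aif1, which is not shown, the start used lies inside the RefSeq gene span. The last bases of these 2 windows therefore overlap the gene. Capitals mark GAGGAA, a core bound by the myeloid transcription factor PU.1, or its reverse complement TTCCTC.
C1qb, chr4:136886201-136886450, minus strand: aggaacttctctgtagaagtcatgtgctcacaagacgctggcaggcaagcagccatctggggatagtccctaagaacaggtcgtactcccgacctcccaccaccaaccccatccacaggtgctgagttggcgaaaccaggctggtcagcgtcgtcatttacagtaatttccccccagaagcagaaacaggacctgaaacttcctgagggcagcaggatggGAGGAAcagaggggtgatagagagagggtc
C1qc, chr4:136892915-136893164, minus strand: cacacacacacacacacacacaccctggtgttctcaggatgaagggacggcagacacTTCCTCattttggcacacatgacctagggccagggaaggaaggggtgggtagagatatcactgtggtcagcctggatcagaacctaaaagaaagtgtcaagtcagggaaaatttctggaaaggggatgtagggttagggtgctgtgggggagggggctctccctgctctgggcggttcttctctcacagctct
Itgam, chr7:128062390-128062639, plus strand: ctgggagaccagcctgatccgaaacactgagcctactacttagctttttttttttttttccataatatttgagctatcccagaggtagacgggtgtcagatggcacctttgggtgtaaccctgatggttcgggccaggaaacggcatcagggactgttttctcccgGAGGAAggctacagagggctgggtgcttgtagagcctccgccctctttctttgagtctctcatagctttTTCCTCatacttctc
P2ry12, chr3:59262986-59263235, minus strand: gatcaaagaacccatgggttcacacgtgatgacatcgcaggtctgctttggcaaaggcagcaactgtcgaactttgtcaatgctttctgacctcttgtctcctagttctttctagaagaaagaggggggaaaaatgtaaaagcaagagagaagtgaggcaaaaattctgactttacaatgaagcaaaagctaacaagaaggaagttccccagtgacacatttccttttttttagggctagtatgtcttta
In this window the motif occurred on either strand in 5 of the 7 members (C1qb, C1qc, Itgam, Aif1 and Trem2, with 2 copies in Itgam), and not in P2ry12 or Cx3cr1. In Aif1 it began 7 bases before the start used, in the part of the window that overlaps the gene. The motif occurred in 23.3% of all 32851 promoters of the same length. The letters alone do not show that a factor binds there.

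Every measured microglia gene was lower in the posterior pairs c1 to c4, called the hindbrain here, than in the rest of the coronal axis. This contrast sets pairs c1 to c4, assigned here to the cerebellum, pons and medulla, against c5 to c13. The name covers c1 as well, although the markers did not place that pair in the hindbrain. Values are log2 signal relative to the 75th percentile of the array, so that 0 equals that percentile, and levels are compared only within a gene. All 9 members were called lower (adjusted p under 0.05, limma with Benjamini-Hochberg adjustment over 36573 probes), where 20.6% of all probes were called lower and 31% higher. The differences ranged from −0.73 for C1qa to −0.95 for P2ry12, with a median of −0.82, while the median over all probes was 0.13. That shift of all probes was 0.01 when each array was scaled to its median.

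C1qa, C1qb and C1qc encode the 3 chains of C1q, the recognition molecule of the classical complement pathway, and lie together on chromosome 4 (GRCm38.p6, C1qa at 136895916-136898844, C1qb at 136880126-136886200, C1qc at 136889801-136892936). C1qa ranged from 1.06 over a median of 1.35 to 2.12 in the 8 hindbrain fractions, and from 1.84 over a median of 2.15 to 2.94 in the 18 others. C1qb ranged from −0.07 over 0.18 to 1.00 in the hindbrain and from 0.72 over 1.04 to 1.94 elsewhere. C1qc ranged from 1.16 over 1.35 to 2.15 and from 1.85 over 2.29 to 3.16. For each of the 3 genes the lowest hindbrain fractions were far below all others, and the overlap came from the most posterior pair, c1. The fitted differences were −0.73 ± 0.06 (SE, adjusted p = 4.62e-12) for C1qa, −0.79 ± 0.07 (adjusted p = 1.86e-11) for C1qb and −0.79 ± 0.08 (adjusted p = 9.28e-10) for C1qc.

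Trem2 is a lipid-sensing receptor of microglia and Tyrobp, also called DAP12, is the adaptor through which it signals. Trem2 ranged from 1.12 over 1.23 to 2.11 in the hindbrain and from 1.95 over 2.26 to 3.04 elsewhere, a difference of −0.91 ± 0.06 (adjusted p = 2.80e-14). Tyrobp ranged from 0.43 over 0.58 to 1.53 and from 1.14 over 1.46 to 2.25, a difference of −0.81 ± 0.07 (adjusted p = 1.33e-11). Receptor and adaptor were thus lower by like amounts, again with c1 as the pair that reached into the range of the rest.

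P2ry12, the ADP receptor that steers microglial processes, ranged from −1.95 over −1.63 to −0.83 in the hindbrain and from −1.14 over −0.57 to −0.30 elsewhere, which is −0.95 ± 0.09 (adjusted p = 6.59e-11). Cx3cr1, the receptor for the neuronal chemokine fractalkine, ranged from −0.81 over −0.41 to 0.40 and from 0.18 over 0.58 to 0.90, a difference of −0.90 ± 0.10 (adjusted p = 5.55e-09). In each coronal mouse taken alone, the hindbrain and other fractions of Cx3cr1 did not overlap. This held for 1 of the 9 genes only, and the share of all probes was not counted. Aif1, which encodes the cytoskeletal protein Iba1 used to stain microglia, differed by −0.82 ± 0.09 (adjusted p = 1.06e-08), and Itgam, the CD11b chain of complement receptor 3, by −0.82 ± 0.16 (adjusted p = 7.49e-05). The direction was the same in both mice for all 9 genes, but the size differed in Aif1, with −0.57 in C and −1.06 in Co, and in P2ry12, with −0.70 in C and −1.20 in Co.

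**Figure D1:**
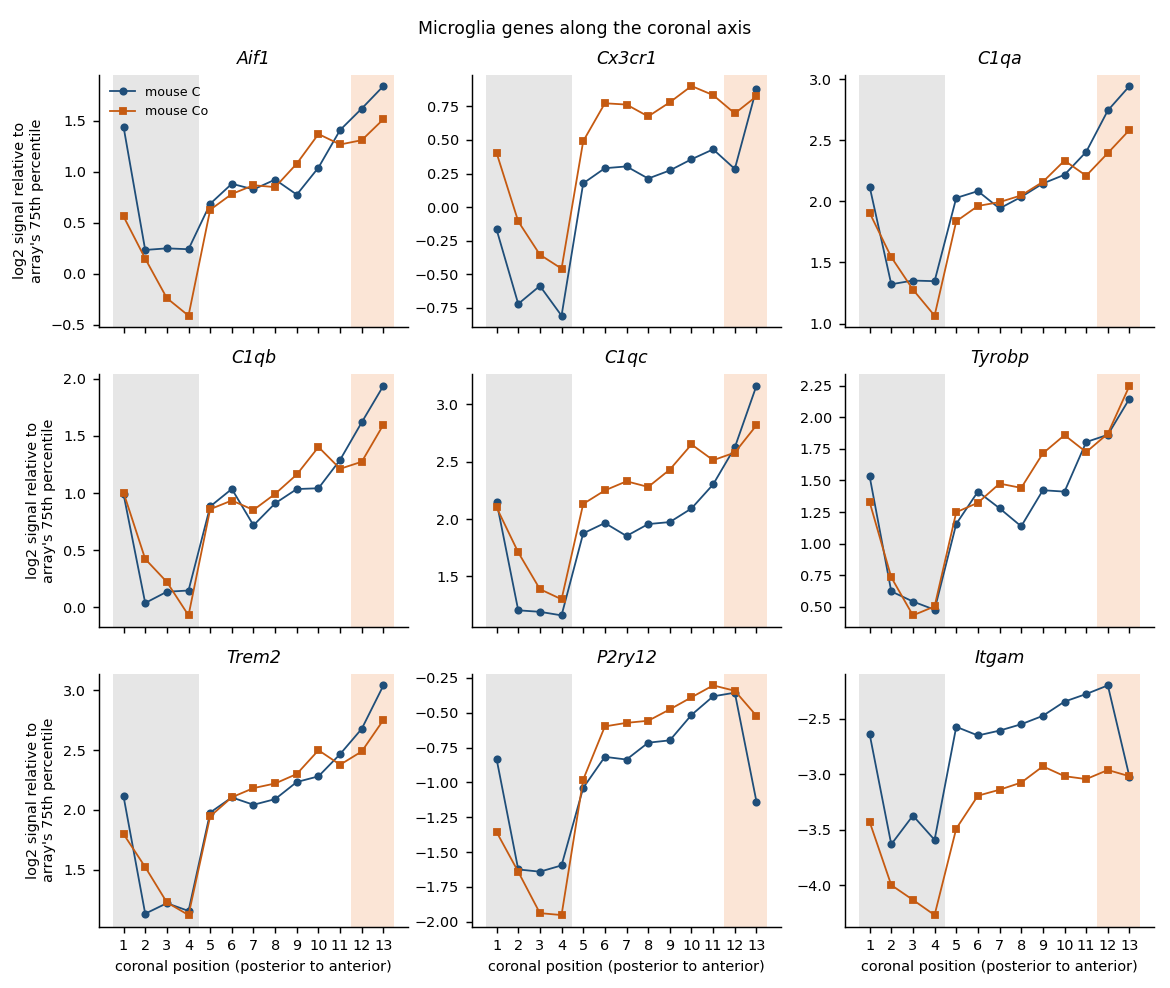
Log2 signal relative to the array's 75th percentile (y) at the 13 paired coronal positions from posterior to anterior (x), 1 panel per gene with its own scale, 1 line per mouse (C and Co), with the hindbrain pairs c1 to c4 shaded grey and the rostral end c12 to c13 orange. Each gene dipped at c2 to c4, with c1 above this dip, and 6 of the 9 genes reached their highest paired mean at c13 together with a called rise at the rostral end, whereas P2ry12 and Itgam of mouse C dropped from C12 to C13.

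The low hindbrain level came from the pairs c2 to c4. In 8 of the 9 genes all 6 fractions of c2 to c4 were below all 18 fractions of c5 to c13, the exception being Itgam, and in 7 of the 9 both fractions of c1 were above all of c2 to c4. C1qb, for example, was 0.99 in C1 and 1.00 in Co2 at c1, while the 6 fractions of c2 to c4 lay between −0.07 and 0.42. These groups within the hindbrain were drawn after their values were seen and were not tested. The share of all probes split in these ways was not counted. The 4 hindbrain fractions of mouse C filled 1 slide, but Co5 shared a slide with Co6, Co7 and Co8. On that slide Co5 was below the other 3 fractions in all 9 members, by 0.85 to 1.24 on the log2 scale. Co5 was also the lowest fraction of its whole series in 8 members. The share of all probes lowest in Co5 on that slide was not counted. The hindbrain difference under fixed slide effects was called in 8 of 9 members, and Tyrobp then had −0.72 with an adjusted p of 0.10.

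Along the rest of the coronal axis the members differed in their calls at the rostral end. Complement C1q, Trem2, Tyrobp and Aif1 were higher in c12 and c13, the fractions with the olfactory bulb markers, than in c5 to c11, whereas P2ry12, Cx3cr1 and Itgam had no called difference. The count was 6 of 9 called higher and 0 lower, with 18.5% of all probes called higher and 20.4% lower. The difference between these genes was seen in the data and was not tested.

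For Tyrobp the 4 rostral fractions ranged from 1.86 over 2.01 to 2.25 and the 14 middle fractions from 1.14 over 1.42 to 1.86. C1qa ranged from 2.40 over 2.66 to 2.94 at the rostral end and from 1.84 over 2.07 to 2.41 in the middle. Within each mouse taken alone these 2 genes had no overlap between the groups. They were the only 2 of the 9 for which this held, and the share of all probes was not counted. The rise was 0.57 ± 0.09 for Tyrobp (adjusted p = 5.52e-06) and 0.57 ± 0.08 for C1qa (adjusted p = 5.99e-07). C1qb rose by 0.59 ± 0.09, C1qc by 0.61 ± 0.11, Trem2 by 0.54 ± 0.08 and Aif1 by 0.62 ± 0.13, so that the 6 rises lay between 1.45-fold and 1.53-fold. The mice differed in size, with rises of 0.63 to 0.89 in C and 0.33 to 0.52 in Co on the log2 scale.

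P2ry12 ranged from −1.14 over −0.44 to −0.34 at the rostral end and from −1.04 over −0.59 to −0.30 in the middle, so the groups overlapped. Its difference was 0.04 with a 95% interval from −0.19 to 0.28 (adjusted p = 0.803), and that of Cx3cr1 was 0.15 with an interval from −0.12 to 0.43 (adjusted p = 0.409). For Itgam the interval was wide, from −0.43 to 0.45 around 0.01 (adjusted p = 0.977). P2ry12 and Itgam were lowest at the rostral end in C13, at −1.14 and −3.02, after −0.36 and −2.20 in C12. C13 is the coronal fraction that shared a slide with H1 and H2, in which P2ry12 was −1.27 and −1.81. Without C13 the difference was 0.20 for P2ry12 (adjusted p = 0.251), 0.14 for Cx3cr1 and 0.01 for Itgam, and the 6 called genes still had 0.47 to 0.60, all called. With slides as fixed blocks 4 of the 9 were called, Trem2 (0.60, adjusted p = 0.0541) and Tyrobp (0.63, adjusted p = 0.0819) being lost. In that setting P2ry12 had 0.26, Itgam 0.21 and Cx3cr1 0.07, with no call.

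Within 1 slide, C12 was above C9, C10 and C11 in 8 of the 9 genes, and Cx3cr1 was within their range. The share of all probes highest in C12 on that slide was not counted. Macrophages at the brain borders share C1q, Tyrobp, Trem2, Aif1 and Cx3cr1 with microglia but have little P2ry12. Of these shared genes, Cx3cr1 had no called rise at the rostral end (0.15, adjusted p = 0.409 by limma), and neither had Itgam (0.01). All 8 border macrophage genes on the list used here were called higher at the rostral end (median 0.99), and 6 of the 8 were above background on all arrays. Their summed signal, in units of the 75th percentile, was 2.01 to 3.04 at the rostral end and 0.98 to 1.91 in the middle. The part of these cells in the rise of the members was not tested.

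**Figure D2:**
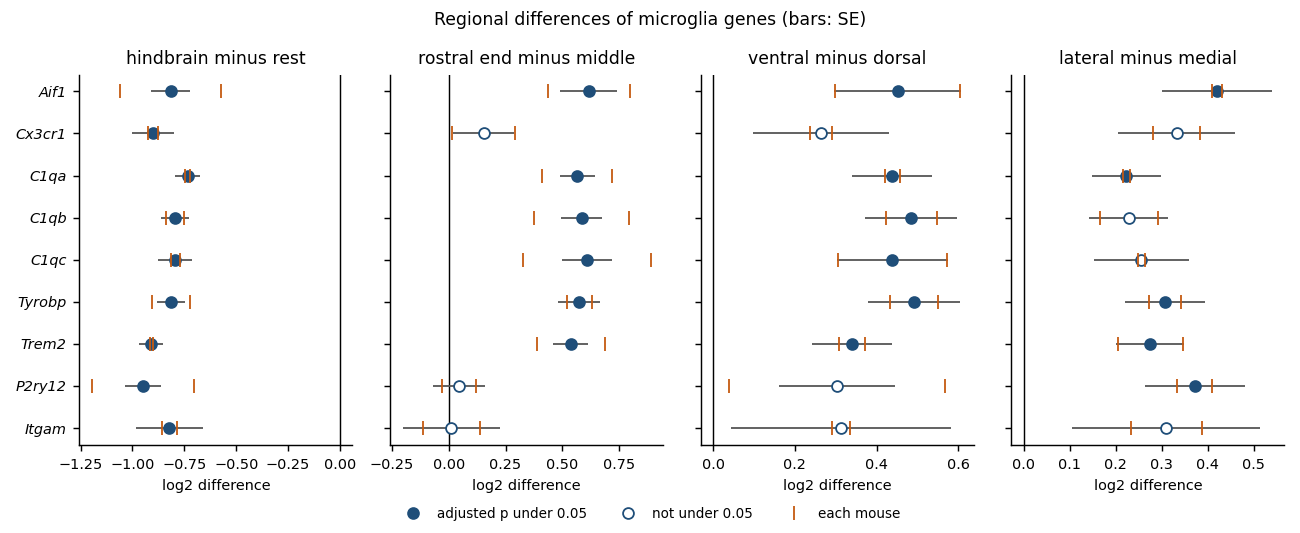
Log2 differences (x) of the 9 genes (y) for 4 contrasts, with points for the fitted value, bars for its SE, filled points for an adjusted p under 0.05, and orange ticks for each of the 2 mice of the plane. The hindbrain difference was below 0 in both mice for all 9 genes. At the rostral end P2ry12, Cx3cr1 and Itgam had the smallest differences and no call.

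Along the horizontal axis 6 members were higher in the mean of the ventral pairs h5 and h6 than in that of the dorsal pairs h1 and h2. Both mice had the same direction in all 9. The 6 called genes were the same as at the rostral end. The shares of all probes called were 8.47% higher and 5.81% lower. C1qb ranged from 1.42 over 1.64 to 2.05 in the 4 ventral fractions and from 1.00 over 1.19 to 1.43 in the 4 dorsal ones, which barely overlapped, and rose by 0.49 ± 0.11 (adjusted p = 0.00262). Tyrobp ranged from 1.05 over 1.26 to 1.76 and from 0.59 over 0.86 to 1.07, a rise of 0.49 ± 0.11 (adjusted p = 0.00254). C1qa rose by 0.44 (adjusted p = 0.00181), C1qc by 0.44 (adjusted p = 0.0249) and Trem2 by 0.34 (adjusted p = 0.0159). Aif1 was at the threshold, with 0.45 and an adjusted p of 0.0499, and lost its call when any of 41 single arrays was left out. The highest paired mean was at h6 in all 9 genes, and the share of all probes highest there was not counted. In Aif1 and Trem2 the mean of h5 (0.58 and 2.25) was below that of h1 (0.67 and 2.29), with h6 at 1.32 and 2.81. In C1qa, C1qb, C1qc and Tyrobp h5 was above h1.

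P2ry12 had 0.30 (adjusted p = 0.183), Itgam 0.31 (adjusted p = 0.574) and Cx3cr1 0.26 (adjusted p = 0.376). With the mouse as a block, 7 members were called, Cx3cr1 being added (adjusted p = 0.0283). The dorsalmost fraction of Ho has no partner in the pairs. Ho1 was the brightest fraction of its series in all 9 genes, for instance 3.15 in C1qa against 2.01 to 2.77 in Ho2 to Ho7. When fractions were paired by number, so that Ho1 became dorsal, 0 members were called and Trem2 had −0.19. With slides as fixed blocks 0 members were called, although the differences were larger, such as 0.56 for C1qa (adjusted p = 0.125). Without Ho2 the calls of Aif1, C1qc and Trem2 were lost, and without any 1 of H2, Ho2 or Ho7 the count was 3 of 9.

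Along the sagittal axis 5 members were higher in the mean of the lateral pairs than in that of the medial pairs. The lateral pairs s1, s2, s8 and s9 were called higher than the medial pairs s4 to s6 in 5 of 9 members, where 9.01% of all probes were called higher and 10.6% lower, and the difference was above 0 in both mice for all 9. P2ry12 ranged from −1.11 over −0.75 to −0.47 in the 8 lateral fractions and from −1.39 over −1.13 to −0.92 in the 6 medial ones, a rise of 0.37 ± 0.11 (adjusted p = 0.0133). Within each mouse its groups did not overlap. This held for 1 of the 9 genes only, and the share of all probes was not counted. Aif1 ranged from 0.62 over 1.02 to 1.54 and from 0.34 over 0.60 to 0.72, a rise of 0.42 ± 0.12 (adjusted p = 0.0104). Tyrobp rose by 0.31 (adjusted p = 0.0104), Trem2 by 0.27 (adjusted p = 0.00738) and C1qa by 0.22 (adjusted p = 0.0328). In C1qa the mean of s2 (1.78) was below those of s4 (1.86) and s6 (1.85), while in the other called genes s2 was above both. C1qa lost its call when any of 8 single arrays was left out, S1 among them.

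The other 4 had like values with adjusted p above the threshold, at 0.33 for Cx3cr1 (0.0663), 0.31 for Itgam (0.355), 0.26 for C1qc (0.0835) and 0.23 for C1qb (0.0607). With the mouse as a block all 9 were called, and without S6 the count was 3. The pair at the midline, s5, had the lowest mean of the 9 sagittal pairs in all 9 genes. The So series ended in an unpaired left fraction, So1, which was the brightest of its 10 fractions in 8 genes, and S1 was the brightest of S in 8. For these counts of lowest and brightest positions the shares of all probes were not computed. Left and right hemispheres had no called difference in any member (0 of 9 by limma, and 1 of 9, Tyrobp with −0.19, at an unadjusted p under 0.05). Over all probes 0.041% were called higher on the left and 0.112% lower, and the 95% intervals of the members lay within −0.38 and 0.46.

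**Figure D3:**
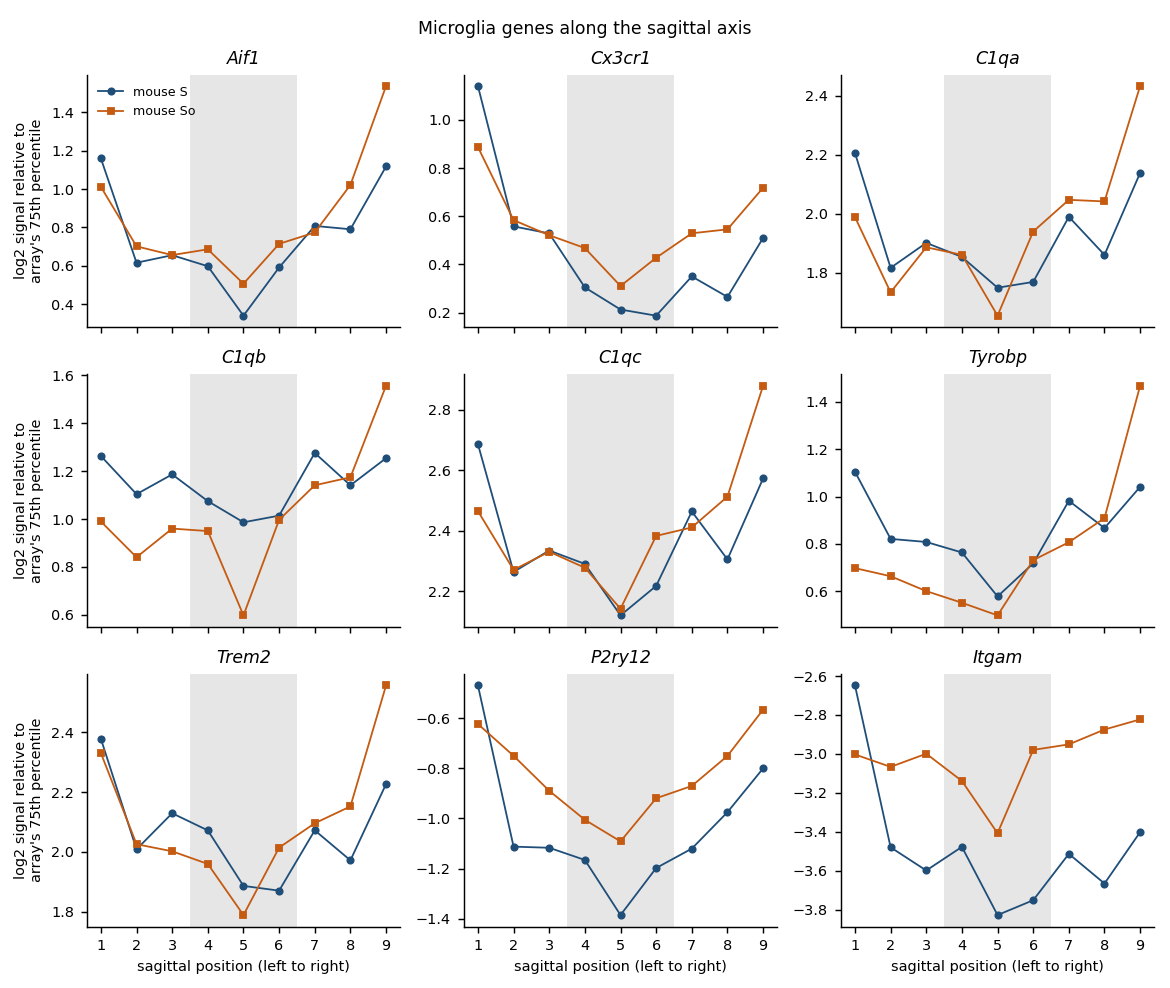
Log2 signal relative to the array's 75th percentile (y) at the 9 paired sagittal positions from left to right (x), 1 panel per gene with its own scale, 1 line per mouse (S and So), with the medial pairs s4 to s6 shaded. The mean of the pair s5 was the lowest of the 9 in every gene, and for Itgam the line of So lay above that of S except at s1.

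Over all 28 positions, 8 of the 9 members varied (moderated F test with 27 numerator degrees of freedom), while 61.3% of all probes did. This test also takes in differences between the planes, which were cut from different mice. F was highest for Trem2 (16.4) and Tyrobp (16.3), followed by C1qa (13.7), C1qb (13.6), P2ry12 (10.9), C1qc (9.25), Aif1 (7.69) and Cx3cr1 (6.36). Itgam had 1.83 (adjusted p = 0.0831), and 7.01 (adjusted p = 2.54e-04) with slides as fixed blocks. The order of neighbouring positions was mostly not resolved. Of the 12 steps between coronal pairs sorted by mean, 1 to 4 per gene were larger than the pooled SD between partners, of the 8 sagittal steps 0 to 4 and of the 5 horizontal steps 1 to 2.

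The profiles of the members resembled each other. Pearson's r over the 61 fractions, which share arrays and scaling, ranged from 0.38 to 0.96 over the 36 gene combinations with a median of 0.75, and after removing the mean of each mouse from 0.78 to 0.99 with a median of 0.88. The highest were C1qa with Trem2 (0.96) and C1qa with C1qb (0.95). Of 15511 other genes, the 10 whose profile was most like the mean of the members were Vav1 and Myo1f (r = 0.96 each), Sash3, Fermt3 and H2-Oa (0.95 each), Cd300c2 and Tmem119 (0.94 each), Fcrls and P2ry6 (0.93 each) and Clec4a2 (0.92). Of these 10, 4 stayed among the 10 most alike after the mouse means were removed and 9 when arrays were scaled to their median. Not all lists of microglia genes were this alike, and the median r of the lists of other cells ran from −0.54 to 0.33. The median r was 0.86 for 18 genes of homeostatic microglia, but 0.37 for 6 transcription factors of microglia and 0.27 for 13 genes of activated microglia. It was 0.33 for border macrophages (0.02 to 0.76 by gene), 0.04 for blood cells, 0.08 for endothelium and −0.07 for astrocytes. For choroid plexus it was −0.53 and for oligodendrocytes −0.54, against 0.01 over all genes.

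Partner genes of the members followed their own patterns. Of the 2 Csf1r ligands, Il34, which is made by forebrain neurons, fell by 1.78 on the log2 scale in the hindbrain, as the members did, and Csf1 rose by 0.51. Il34 also rose by 0.72 in the lateral pairs, and Csf1 fell there by 0.48. Cx3cl1, the ligand of Cx3cr1, fell by 1.90 in the hindbrain and had −0.11 at the rostral end (adjusted p = 0.198). It also fell by 0.35 ventrally and rose by 0.53 laterally. Of the partners listed for P2ry12, which included Entpd1, the enzyme that degrades ATP and ADP, all 4 were lower in the hindbrain. P2ry13 had −1.22, Gpr34 −1.09, P2ry6 −0.79 and Entpd1 −0.68. At the rostral end P2ry6 (0.42) and Entpd1 (0.57) rose, and P2ry13 (0.31) and Gpr34 (0.20) had no call.

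Around Trem2 and Tyrobp, the kinase Syk (−1.39), the phosphatase Inpp5d (−0.98), the receptor Cd33 (−0.65) and the ligand Clu (−0.22) were lower in the hindbrain, while Apoe (0.06) and Plcg2 (0.02) had no call. Syk rose by 1.14 and Apoe by 0.36 at the rostral end, where Clu fell by 0.56. Of the Itgam partners, Itgb2, its beta chain, fell by 0.54 and Fermt3, which activates integrins, by 0.79 in the hindbrain, and Icam1, a ligand, had −0.04 with no call. At the rostral end Itgb2 had 0.04, Fermt3 0.20 and Icam1 0.56, and these 3 values had no call. In the lateral pairs Syk (0.22), Inpp5d (0.40), Clu (0.28) and Fermt3 (0.37) rose and Plcg2 fell by 0.22, while in the ventral pairs Plcg2 (0.62) and Fermt3 (0.40) rose.

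Other complement genes were mixed in the hindbrain. Of 10 genes, 2 were lower there, as C1q was, the protease C1ra (−0.59) and the receptor C3ar1 (−0.52), and 3 were higher, the central component C3 (2.25), the C1 inhibitor Serping1 (0.76) and the membrane regulator Cd59a (1.07). C1s1 (0.16), C2 (0.26), C4b (0.15) and Cd55 (0.16) had no call, nor had C5ar1, which was above background on 3 arrays only and is given no value. At the rostral end 7 of the 10 were called higher, C5ar1 among them, the others being C4b (1.32), Serping1 (1.31), Cd55 (1.47), C2 (0.97), C1s1 (0.86) and C3ar1 (0.63). There C3 fell by 1.14, and C1ra (−0.14) and Cd59a (0.17) had no call. In the ventral pairs 6 of the 10 rose, C3 by 3.03, Cd59a by 1.34, C4b by 1.30, Cd55 by 0.77, Serping1 by 0.75 and C2 by 0.73, and C1ra fell by 1.23. In the lateral pairs, where C1qa rose, 5 of the 10 complement genes fell and 0 rose, C3 by 2.28, Cd59a by 1.07, C4b by 0.68, Serping1 by 0.48 and Cd55 by 0.36.

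Other genes typical of microglia fell in the hindbrain as the members did. All 18 on a list of genes of homeostatic microglia were called lower, with a median of −0.80, among them Fcrls (−1.41), Tmem119 (−1.02) and Mertk (−0.83), the last a receptor for apoptotic cells that astrocytes also make. At the rostral end 9 of the 18 rose, 1 fell and 8 had no call (median 0.29). Of the 3 named genes, Fcrls (0.42) and Tmem119 (0.27) were called higher there and Mertk fell by 0.44. Ventrally 8 of 18 rose (median 0.36) and laterally 6 of 18 (median 0.24).

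Of 6 transcription factors of microglia, 5 were lower in the hindbrain, among them Irf8 (−0.80) and Sall1 (−0.70). At the rostral end Irf8 (0.28) and Sall1 (2.86) rose. Sall1 is also made by some neural progenitors. Spi1, which encodes PU.1, was above background on 32 arrays, fell by 1.16 in the hindbrain and had 0.35 at the rostral end with no call. Of 13 detected genes of activated microglia, 5 were lower and 2 higher in the hindbrain (median −0.02), and 11 were higher and 1 lower at the rostral end (median 1.49). Lpl fell by 1.46 and 2.11 in these contrasts, Spp1 rose by 1.44 and 1.69, and Il1b fell by 1.81 and had −0.34 with no call. Only 5 of the 13 were above background on all arrays.

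**Figure D4:**
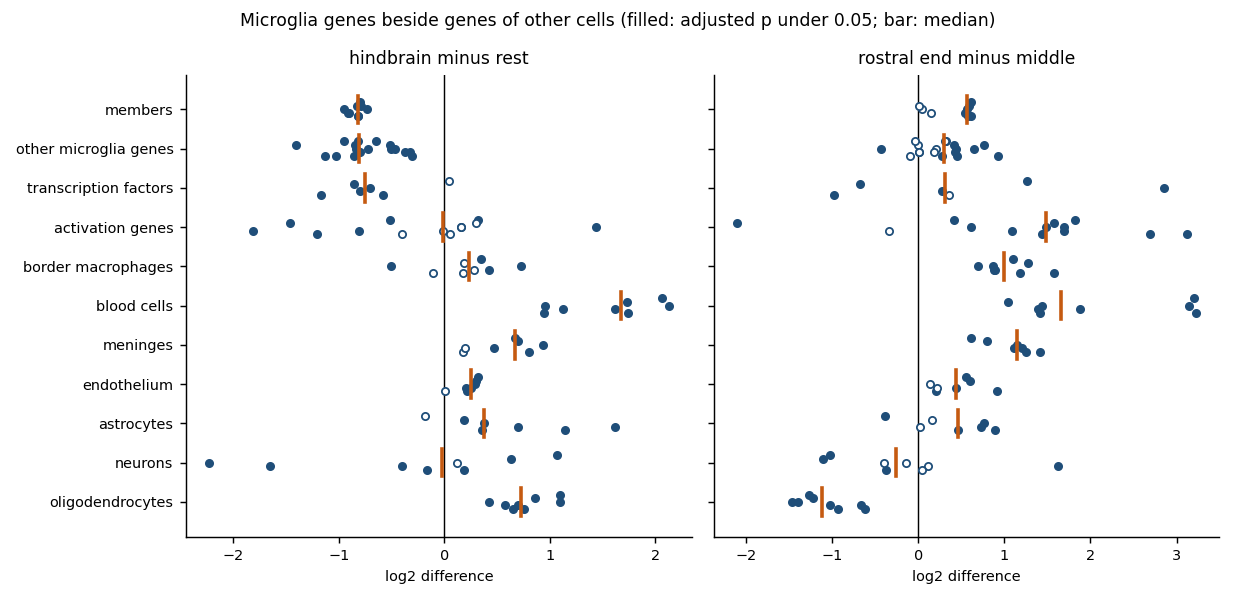
Log2 difference (x) of each detected gene in 11 lists (y) for the hindbrain against the rest of the coronal axis and for the rostral end against the middle, with filled points for an adjusted p under 0.05 and an orange bar for the median of the list. In the hindbrain the members and other microglia genes lay below 0 (medians −0.82 and −0.80), while the medians of blood (1.67), meningeal (0.67) and oligodendrocyte genes (0.73) lay above 0, and at the rostral end border macrophage and meningeal genes were higher (medians 0.99 and 1.15).

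Markers of other cells were followed beside the members. In the hindbrain 8 of 8 blood cell genes, 5 of 7 meningeal, 6 of 7 endothelial, 6 of 7 astrocyte, 8 of 8 oligodendrocyte and 4 of 4 detected choroid plexus genes were higher. Of the border macrophage genes there, 3 were higher and 1, Stab1, lower, with a median of 0.23, so that this list did not share the fall of the members. Neuronal genes were mixed, with 3 higher and 4 lower. At the rostral end 8 of 8 blood cell genes (median 1.66), 7 of 7 meningeal genes (median 1.15), 5 of 7 endothelial and 4 of 7 astrocyte genes were higher, while 8 of 8 oligodendrocyte and 4 of 4 choroid plexus genes were lower. The summed meningeal signal was 28.1 to 44.9 at the rostral end and 10.4 to 34.3 in the middle, and that of blood cell genes 19.5 to 25.0 and 4.32 to 21.8. In the ventral pairs 2 of 8 border macrophage, 2 of 7 meningeal and 0 of 8 blood cell genes were called higher, 3 of 4 choroid plexus genes rose (median 1.25), and the 8 oligodendrocyte genes rose. In the lateral pairs the 8 oligodendrocyte genes fell, and of the border macrophage and meningeal genes 1 each fell and 0 rose. The part of these cells in the members' values was not tested.

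Mice differed in the level of some members. A moderated F test of the contrasts So minus S, Co minus C and Ho minus H called 3 of 9 members (5 without H1 or Ho2), where 63.1% of all probes were called. With the slide as a random block 2 members were called, Itgam and Cx3cr1, and C1qc lost its call (F = 0.97, adjusted p = 0.63). The median of Itgam was −3.51 over the fractions of S and −2.99 over those of So. It was −2.61 for C against −3.12 for Co, and −2.88 for H against −3.06 for Ho. It was higher in So than in S by 0.46 ± 0.09 (adjusted p = 2.08e-04) and lower in Co than in C by 0.60, that is −0.60 ± 0.07 (adjusted p = 7.20e-08). Cx3cr1 had medians of 0.27 in C and 0.69 in Co and was higher in Co by 0.41 ± 0.05 (adjusted p = 7.46e-08). C1qc was higher in Co by 0.23 ± 0.06 (adjusted p = 0.00292), and Aif1 lower by 0.19 (adjusted p = 0.0455) without an F call.

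In all, 1 member was called higher and 0 lower in So than in S (12.4% and 17.5% of all probes), and 2 were higher and 2 lower in Co than in C (26.1% and 27.4%). Between Ho and H, which were scanned together, 0 of 9 were called by limma (0 of 9 at an unadjusted p under 0.05), with 3.92% and 1.6% of all probes. For Itgam and Cx3cr1 the mouse contrast differed between planes (F = 43.2 and 20.3), as it did for 55.4% of all probes. Apart from S1 and C13, mouse, slide and scan day cannot be told apart in the sagittal and coronal planes. The array C13, scanned apart from C1 to C12, had 0.88 in Cx3cr1 where C12 had 0.28 and Co15 had 0.82.

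**Figure D5:**
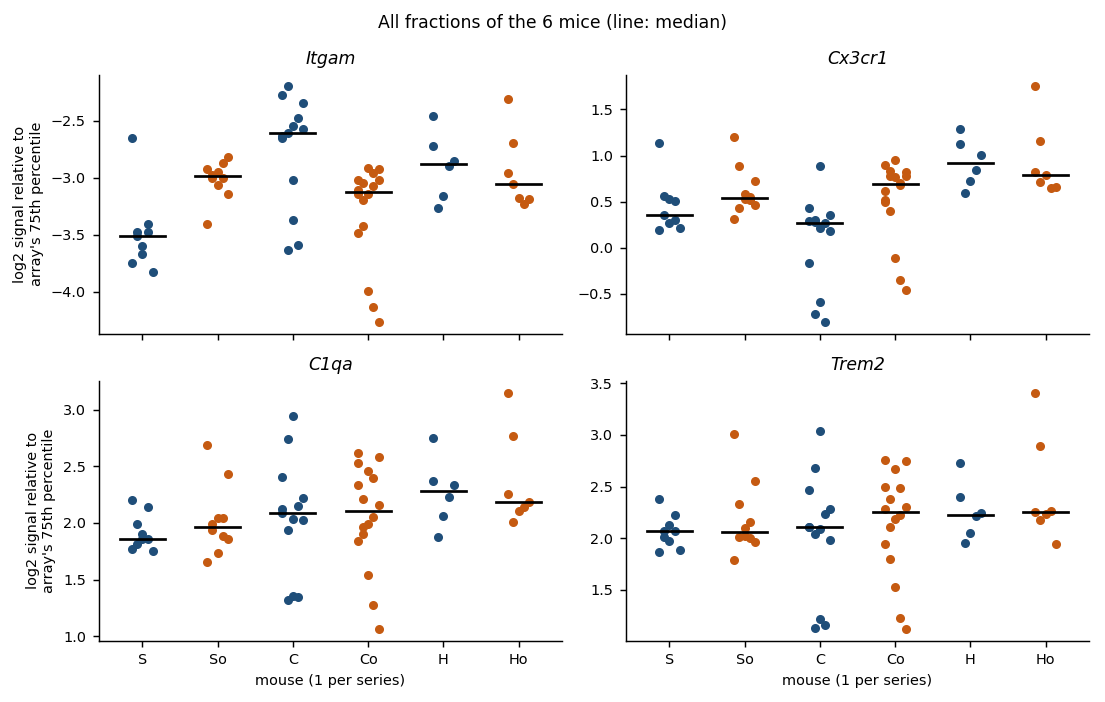
Log2 signal relative to the array's 75th percentile (y) of all 61 fractions by mouse (x, 1 series each) for Itgam, Cx3cr1, C1qa and Trem2, with a line at the median. The medians of Itgam ran from −3.51 in S to −2.61 in C, and those of Cx3cr1 from 0.27 in C to 0.92 in H.

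The fractions without a partner, which entered no test, lay at the ends of the series except for Co13. C1qa was 2.69 in So1, 3.15 in Ho1, 2.53 in Co1, 2.46 in Co13 and 2.62 in Co16. Co1, the most posterior fraction of its mouse, was thus far above Co3 to Co5 (1.06 to 1.54), and P2ry12 there was −0.76 against −1.95 to −1.64. Ho1 and So1, both at the surface of the brain, had the highest value of their series in 9 and 8 of the 9 genes, and Co16 in 4. The share of all probes highest in these fractions was not counted.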

How the data were processed

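Expression was measured in 61 brain fractions on single-colour Agilent arrays. The authors deposited the background-subtracted intensity of each spot from Agilent Feature Extraction 9.1.3.1, with flags for signal well above background, and a table of intensities that in these files equals the spot mean divided by 1 constant per array. Here, log2 intensities were averaged over the spots of each probe and reduced by the 75th percentile of the array. Tests covered the probes flagged as detected on 1 or more arrays (36573 of 41174). Genes were named through the RefSeq accession of the probe (assembly GRCm38.p6).

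Positions were compared with limma 3.58.1 in R 4.3.3 (lmFit and eBayes, 28 residual degrees of freedom), fitted on all detected probes with Benjamini-Hochberg adjustment, without a mouse term, as the study's methods describe. Deviations of fractions of the same mouse from their pair means correlated (median r = 0.28 over 129 combinations, 115 above 0.1), so the mouse was also fitted as a block. Fractions of 1 mouse are not separate animals, and p-values partly measure spread between arrays. The number of arrays limits the precision. Tables and figures were made with Python 3.11.15, pandas 2.3.3 and matplotlib 3.10.9.

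The members, the gene lists and the rule for named genes (all members and partner genes, up to 3 genes with the largest F of each other list, and the 10 genes most alike) were chosen with earlier results of these data known. The values of 1 gene that this rule names are not reported here.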

Additional observations from a re-analysis of the deposited data

Results flagged for a closer look

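Among the 9 members in the S, So, H and Ho series, 36 sets of fractions were examined for a single fraction far from the others, of which chance alone marks about 1 in 20, and 2 stood out. Cx3cr1 was 1.14 in S1 (log2 relative to the 75th percentile), while the other 8 fractions of S lay between 0.19 and 0.56. Itgam was −2.65 in S1, while the others lay between −3.83 and −3.40. S1 is at the left surface and was scanned with So1 and So2 on 1 slide, apart from S2 to S9, and on that slide So1 and So2 had 1.20 and 0.89 in Cx3cr1 and −2.92 and −3.00 in Itgam. Position, slide and scan day cannot be told apart for S1.

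The difference between the 2 mice of a plane varied between planes in 2 of 9 members, by limma's moderated F test of the difference of the mouse contrasts. For Itgam F was 43.2 (adjusted p = 6.64e-08), with 0.46 for So minus S, −0.60 for Co minus C and −0.16 for Ho minus H. For Cx3cr1 F was 20.3 (adjusted p = 2.41e-05), with 0.10, 0.41 and −0.13. Such a difference was called for 55.4% of all probes.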

How the results depend on the processing

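The call of lower signal in the hindbrain held for 9 of 9 members under all alternatives run except slides as fixed blocks (8), and 0 members were called for left minus right under all of them. Rostral counts were 6 throughout except with slides as fixed blocks (4), and position counts were 8 or 9. Leaving out each of 56 arrays gave 3 to 5 called members between mice, 3 to 6 for lateral minus medial and 3 to 6 for ventral minus dorsal. The lateral count of 5 became 8 with scaling to the array median, with the authors' normalized table and with the slide as a random block, 9 with the mouse as a replicate block and with slides as fixed blocks, and 1 both with fractions paired by number and at an adjusted p under 0.01. The ventral count of 6 became 3 with scaling to the array median, with the authors' table and at 0.01, and 0 with slides as fixed blocks and with pairing by number. Scaling to the median moved the median of all probes by over 0.1, from 0.13 to 0.01 in the hindbrain and from −0.005 to 0.10 in the lateral contrast. Pairing by number turned the ventral difference of 4 called members, Aif1 (−0.21), C1qc (−0.031), Tyrobp (−0.10) and Trem2 (−0.19), and of 3 uncalled ones, Cx3cr1 (−0.10), P2ry12 (−0.22) and Itgam (−0.026). It also turned the uncalled left minus right values of Aif1 (0.13), C1qa (0.080), C1qb (0.081), C1qc (0.10), Tyrobp (0.081) and Trem2 (0.22). This pairing takes Ho1 and So1 into the pairs and also changes the partners of other fractions. Other values that changed sign were near 0 and uncalled. For Trem2, left minus right was 0.034 with the array median, 0.033 with the authors' table and 0.042 with normexp and quantile. For P2ry12 the rostral difference was −0.029 with the slide as a random block, and left minus right was −0.017 for P2ry12 and −0.10 for Itgam with slides as fixed blocks. Leaving out single arrays moved the rostral difference of Itgam between −0.18 and 0.20 and that of P2ry12 between −0.11 and 0.20, and left minus right between −0.030 and 0.17 for Itgam, −0.037 and 0.054 for P2ry12 and −0.048 and 0.034 for Trem2. For values of single members called in the main setting, 2424 of 2523 recomputations kept their direction and call, 95 lost the call and 4 changed sign. The second probe of Aif1, Cx3cr1 and Trem2 kept every position call except that of Aif1 for ventral minus dorsal (0.40, adjusted p = 0.135). Slides as fixed blocks could not be fitted for the difference between mice. With the slide as a random block the count between mice was 2, C1qc being lost. Where counts moved, the cause was not tested.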
